A study of Homo sapiens with 84 samples.

Results

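Gene expression was compared between NCI-H647 cells exposed to RBN012337 at 3 nM for 24 h and cells given the vehicle DMSO for 24 h. The libraries were taken by the titles of their samples. They are 6 of the 84 libraries of the study, 3 treated and 3 DMSO, numbered as replicates 1 to 3. NCI-H647 is an established human line of non-small cell lung cancer, and the labels name no engineered allele. RBN012337 is an inhibitor of PARP7, and 3 nM is the lowest of its 3 concentrations (3, 10 and 100 nM). The study also used the PARP7 inhibitor RBN-2397 (written RBN012397 in the sample labels) at 10, 30 and 300 nM, a treatment time of 6 h and the lung cancer line NCI-H1373. The design calls the replicates triplicate experiments, but the labels tie no replicate to a culture, plate or day. The p-values and SEs use a spread shared by all 42 NCI-H647 libraries in 14 groups, or by all 84 where the lines are compared, unless another fit is named. They cover the differences among replicate libraries alone, a part of which may be technical.

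PARP7, encoded by TIPARP, transfers single ADP-ribose units onto proteins. The gene is induced by the aryl hydrocarbon receptor, a ligand-activated transcription factor that PARP7 restrains in turn. PARP7 is also known to restrain type I interferon induction through the kinase TBK1, and its inhibition can raise interferon-stimulated genes in cancer cells.

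Total counts were 5747118, 3294885 and 4739000 in treated replicates 1, 2 and 3 and 3378615, 4862144 and 1884355 in DMSO replicates 1, 2 and 3. The DMSO libraries differed more among themselves than the treated ones: chi-square per degree of freedom was 4.72 to 13.4 for pairs of treated and 27.8 to 44.1 for pairs of DMSO libraries, where sampling noise alone gives 1. Of 8 epithelial markers 0 lacked counts in all 6 libraries, but the defining adhesion genes EPCAM and CDH1 stayed at or under 4.99 and 0.860 CPM (counts scaled to 1000000 per library), and the keratin genes KRT7, KRT8 and KRT18 made up most of the sum. That sum was 1243 to 1520 CPM in treated and 463 to 794 CPM in DMSO libraries. Leukocyte markers summed to 6.84 to 9.90 CPM in treated and 6.64 to 12.3 CPM in DMSO, with 3 of 8 (CD3E, CD79A and TYROBP) at 0 throughout. Fibroblast markers summed to 5.62 to 17.8 against 4.70 to 10.8 CPM, and endothelial markers to 4.44 to 6.87 against 1.76 to 3.27 CPM with VWF at 0. The part of other cells in the results was not tested.

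Which genes differ at the lowest concentration after 24 h was asked by the comparison with DMSO. Genes of the extracellular matrix and actin cytoskeleton and genes of secreted factors were among those that rose. Clustered histone genes and the amino acid stress genes ASNS and DDIT3 were among those that fell. Of 14789 genes tested with edgeR's quasi-likelihood test, 100 passed an adjusted p of 0.05 (0.676%), of which 54 were higher (0.365%) and 46 lower (0.311%) in treated cells. Log2 fold changes ran from 0.88 to 4.03 among the rises (median 1.48) and from −4.80 to −0.74 among the falls (median −1.19), and the median of all genes was −0.0004. An unadjusted p under 0.05 was reached by 2223 genes (1019 with a positive and 1204 with a negative value), against 739 expected by chance. DESeq2 called 357 genes, 194 higher (1.31%) and 163 lower (1.1%).

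The number of calls rested on single libraries. Without treated replicate 1, 2 or 3 it was 11, 4 and 13. Without DMSO replicate 1 it was 922, which included all 100 genes, and without DMSO replicate 2 or 3 it was 13 and 15, of which 8 and 11 were among the 100. DMSO replicate 1 was the DMSO library nearest to the treated mean for 43 of the 54 rises and 40 of the 46 falls. The same count was not made over all genes tested, so it cannot be read as a trait of the called genes. SMOC1, KRT17, RTEL1-TNFRSF6B and HIST1H2AC were called in each of these 6 fits. A fit of the 6 compared libraries alone called 6 genes and a fit of the libraries of 24 h alone called 4, all of them higher, so that none of the 46 falls was called in either. HIST1H2AC had edgeR adjusted p-values of 0.107 and 0.0542 in these fits, KRT17 was called in the first alone, and SMOC1 and RTEL1-TNFRSF6B were called in the second alone.

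**Figure D1:**
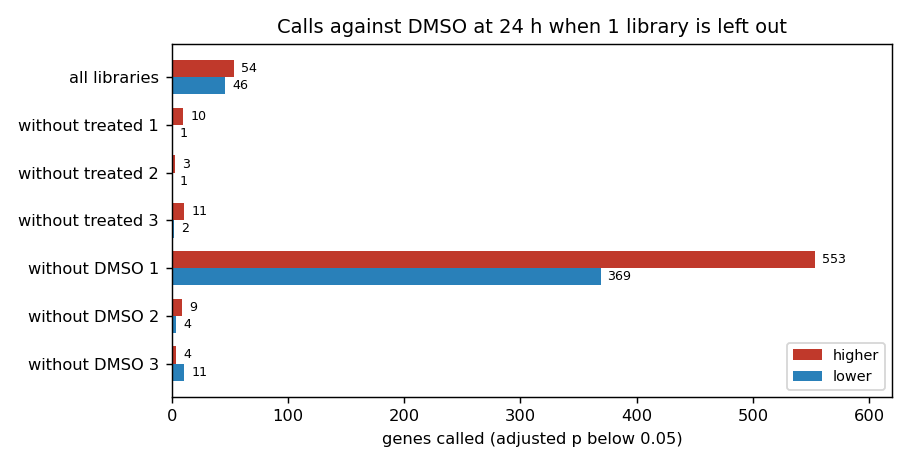
Genes called higher and lower with RBN012337 at 3 nM against DMSO at 24 h, with all libraries and with each of the 6 libraries left out in turn. The bars reach 54 and 46 with all libraries and 553 and 369 without DMSO replicate 1, and 4 to 15 genes in total when 1 of the other 5 libraries is left out.

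SMOC1 encodes a secreted matrix protein that modulates BMP signalling (ENSG00000198732.10, chromosome 14, 69854131 to 70032366 on GRCh38; named after its values were seen). It was at 44.9, 27.2 and 28.3 CPM in treated and 12.0, 5.33 and 7.64 CPM in DMSO cells, in the order of replicates 1 to 3. Every treated library lay above every DMSO library, and the gene rose by 2.04 ± 0.33 on the log2 scale (± SE, n = 3 per group; adjusted p = 0.00119 in edgeR). KRT17, a keratin of stressed and squamous epithelium (ENSG00000128422.15, chromosome 17, 41619441 to 41624842), was at 27.2, 39.4 and 43.6 CPM in treated and 5.69, 4.30 and 1.76 CPM in DMSO cells. The groups were again apart, with a rise of 3.11 ± 0.49 (edgeR adjusted p = 0.00119). The other tested gene of squamous differentiation, KRT6A, had a value of 1.68 ± 1.25 (edgeR adjusted p = 0.552); 2 of the 16 genes of that list had enough counts to be tested.

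The 10 rises named for their size include genes of secreted proteins (CSF3, PAPPA and ANGPTL2) and of an enzyme of prostaglandin synthesis (PTGS2). The rule that named them required that the groups do not overlap. CSF3, the granulocyte colony-stimulating factor (ENSG00000108342.12, chromosome 17, 40015361 to 40017813), was at 46.7, 23.4 and 29.5 CPM in treated and 3.48, 1.03 and 2.94 CPM in DMSO cells. The lowest treated library held several times the highest DMSO level, and the gene rose by 3.91 ± 0.84 (edgeR adjusted p = 0.0221). PTGS2, the inducible cyclooxygenase of prostaglandin synthesis (ENSG00000073756.11, chromosome 1, 186671791 to 186680427), was at 94.1, 74.6 and 90.1 CPM in treated and 20.9, 8.09 and 9.41 CPM in DMSO cells. It rose by 2.76 ± 0.58 (edgeR adjusted p = 0.0220). PAPPA, a protease that frees insulin-like growth factor from its binding proteins, was at 46.4, 80.2 and 87.8 CPM in treated and 18.7, 10.7 and 11.8 CPM in DMSO cells and rose by 2.38 ± 0.48. ANGPTL2, a secreted angiopoietin-like protein, was at 4.17, 5.62 and 2.22 CPM in treated and 0.633, 0.516 and 0 CPM in DMSO cells and rose by 3.01 ± 0.63. Without DMSO replicate 2 these 4 genes had edgeR adjusted p-values of 0.164, 0.145, 0.133 and 0.126.

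CXCL12, a chemokine of leukocyte homing, was at 3.00, 2.07 and 1.01 CPM in treated and 0.316, 0 and 0 CPM in DMSO cells. It held 30 counts in treated against 1 in DMSO cells, a depth-scaled ratio of 22.3 with a 95% counting interval of 3.72 to 912. H19, an imprinted non-coding RNA, held 42 counts against 2 (ratio 15.6, interval 4.07 to 133), and the zinc finger gene ZNF469 held 54 against 3 (ratio 13.4, interval 4.35 to 67.1). These intervals cover counting error only, and they are wide because the DMSO counts are so few. FAM69B was at 9.01, 7.99 and 5.05 CPM in treated and 0.949, 0.516 and 0 CPM in DMSO cells and rose by 3.65 ± 0.74. NES, the intermediate filament protein nestin, was at 8.67, 9.76 and 5.45 CPM in treated and 2.53, 1.20 and 0.588 CPM in DMSO cells and rose by 2.37 ± 0.49.

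**Figure D2:**
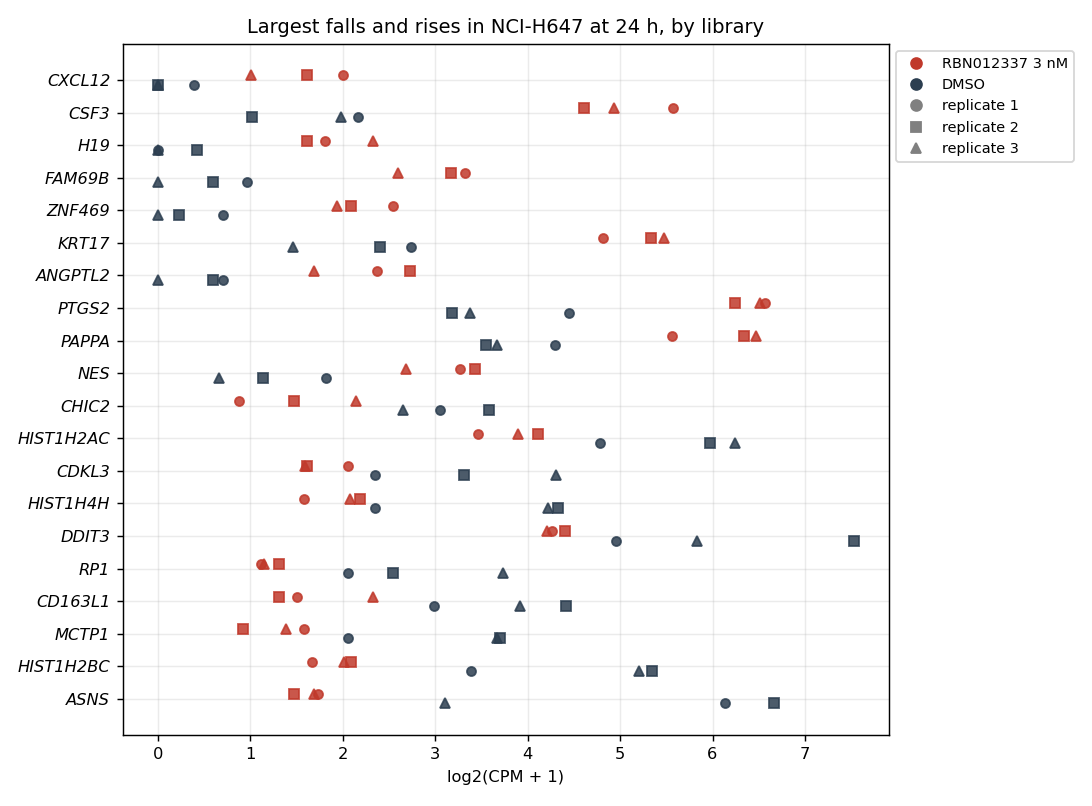
Level of the 10 rises and 10 falls named for their size, in each of the 3 treated and 3 DMSO libraries at 24 h. The rule required that the groups do not overlap; CSF3 lies at 23.4 CPM and above in treated and at 3.48 CPM and below in DMSO cells, and ASNS at 2.33 CPM and below against 7.64 CPM and above.

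Mesenchymal genes, which encode matrix and motility proteins, had 3 called rises and 0 called falls among 13 tested, where 0.365% of all genes rose. All 13 values were positive with a median of 0.35, and 3 were higher without overlap, against 8.71% of all genes tested. FN1, the matrix glycoprotein fibronectin (ENSG00000115414.18, chromosome 2, 215360440 to 215436172), was at 276, 431 and 365 CPM in treated and 148, 108 and 80.6 CPM in DMSO cells and rose by 1.66 ± 0.32 (edgeR adjusted p = 0.0160). The collagen genes COL5A1 and COL6A1 rose by 1.32 ± 0.31 and 0.93 ± 0.21. Without DMSO replicate 2 the list had 1 call, and without DMSO replicate 3 it had 0, in fits that called 0.0595% and 0.0263% of all genes higher.

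Among 17 YAP and TGF-beta targets edgeR called TGFBI higher and 0 genes lower, where 0.365% of all genes rose and 0.311% fell. The list went both ways, with 9 positive and 8 negative values and a median of 0.06. An unadjusted p under 0.05 was reached by 6 members with a positive and 4 with a negative value. TGFBI, a matrix protein induced by TGF-beta (ENSG00000120708.16, chromosome 5, 136028895 to 136063818), was at 1136, 1313 and 1133 CPM in treated and 685, 591 and 475 CPM in DMSO cells. It had the highest mean level of the 54 rises and rose by 1.03 ± 0.20 (edgeR adjusted p = 0.0141), and kept its call in 4 of the 6 fits that leave out a library. INHBA, an activin subunit, had a value of 3.31 ± 0.96 and AXL, a receptor tyrosine kinase, 1.01 ± 0.29 (edgeR adjusted p = 0.0882 and 0.0784).

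Further matrix, adhesion and cytoskeleton genes among the 54 rises were named after their values were seen. VCAN, the proteoglycan versican, was at 63.2, 102 and 102 against 37.3, 13.6 and 27.0 CPM (treated against DMSO) and rose by 1.80 ± 0.41. COL4A2, a basement membrane collagen, was at 149, 117 and 114 against 59.1, 50.9 and 38.2 CPM and rose by 1.34 ± 0.27. TGM2, which cross-links matrix proteins, rose by 1.41 ± 0.28, the secreted protease HTRA1 by 1.03 ± 0.23 and the fibulin EFEMP1 by 0.91 ± 0.20. The actin-binding genes TAGLN and TPM1 rose by 1.89 ± 0.44 and 1.31 ± 0.30, from 111, 29.4 and 35.9 and 356, 132 and 233 CPM in DMSO. ITGA2, a collagen-binding integrin, rose by 1.25 ± 0.27, the heparan sulfate proteoglycan SDC1 by 1.18 ± 0.27 and podoplanin (PDPN) by 1.35 ± 0.30.

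Other rises outside the lists, named after their values were seen, came from metabolism and signalling. CAD, which starts pyrimidine synthesis, rose by 1.17 ± 0.29, and SLC25A10, a mitochondrial dicarboxylate carrier, by 2.01 ± 0.45. CYP2S1, a cytochrome P450 known to be induced through the aryl hydrocarbon receptor but not a member of the list used here, was at 29, 25.7 and 27.9 against 14.9, 13.4 and 7.06 CPM and rose by 1.17 ± 0.26. IGFBP4, an insulin-like growth factor binding protein, rose by 1.47 ± 0.36, the interleukin-7 receptor gene IL7R by 1.47 ± 0.32 and MACROD1, which removes ADP-ribose from proteins, by 1.55 ± 0.38. Each gene of this paragraph was called in 1 of the 6 fits that leave out a library.

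Some called genes, named after their values were seen, are uncertain, since the handling of strand and of shared reads is not given in the sources used here. RTEL1-TNFRSF6B, a readthrough transcript that overlaps the decoy receptor gene TNFRSF6B, was at 51.4, 32.8 and 45.8 against 18.3, 10.7 and 10.00 CPM and called higher by 1.73 ± 0.28. The antisense transcripts AC004918.1 and AC023043.1 were called higher by 2.36 and 1.14.

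Clustered histone genes encode the histones made mainly in S phase, and most of their transcripts end in a stem-loop without a poly(A) tail, so libraries of 3′ ends see the polyadenylated forms. Of 11 tested 5 fell and 0 rose, where 0.311% of all genes fell, with a median of −1.36, and 6 were lower without overlap, against 7.77% of all genes tested. HIST1H2AC (ENSG00000180573.9, chromosome 6, 26124145 to 26139116) was at 10.0, 16.3 and 13.9 CPM in treated and 26.6, 61.8 and 74.7 CPM in DMSO cells. DMSO replicate 1 was the lowest of its group and still above the treated libraries, and the gene fell by 2.02 ± 0.33 (edgeR adjusted p = 0.00119). HIST1H2BC was at 2.17, 3.25 and 3.03 against 9.49, 39.8 and 35.9 CPM, a change of −3.34 ± 0.63. HIST1H4H was at 2.00, 3.55 and 3.23 against 4.11, 19.1 and 17.6 CPM, a change of −2.23 ± 0.43, and HIST1H2BD changed by −1.58 ± 0.35. HIST2H2AA4, named after its values were seen, was at −1.67 ± 0.38 and is uncertain because it has a near-identical copy. Without DMSO replicate 2 HIST1H2AC was called and the list median was −1.04, with 1 call in 12 tested, in a fit that called 0.0265% of all genes lower.

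The HIST1H2AC promoter is shown because an octamer element is known to serve H2B genes and the H2A genes that share their promoters. The letters ATTTGCAT were searched on both strands in RefSeq windows of 250 bases before to 50 bases after the start (GRCh38.p14). They were found in 5 of 9 members of the list with a window (55.6%) and in 2.19% of all 27305 genes. The window of HIST1H2AC (plus strand, chr6:26123922-26124221) is printed 5′ to 3′, with the reverse complement of the octamer in capitals, its first base 130 bases before the start.
HIST1H2AC: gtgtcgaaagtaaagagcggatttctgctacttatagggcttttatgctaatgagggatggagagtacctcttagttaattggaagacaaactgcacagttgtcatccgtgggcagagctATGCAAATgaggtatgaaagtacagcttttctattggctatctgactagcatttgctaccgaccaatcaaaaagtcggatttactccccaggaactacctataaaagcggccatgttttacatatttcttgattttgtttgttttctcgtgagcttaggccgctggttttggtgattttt
HIST1H2BC starts nearby in the other direction, and both windows share 255 bases with this octamer. The 5 genes that hold it had values of −3.34 (HIST1H2BC), −2.02 (HIST1H2AC), −1.36 (HIST1H2BJ), −1.27 (HIST1H2BG) and −0.88 (HIST2H2BE). Of these 5 HIST1H2BC and HIST1H2AC were called. HIST1H4H and HIST1H2BD were called lower without the octamer in their windows, and the other members without it, HIST1H1E and HIST1H1C, had values of 0.50 and 0.04. A match here and below describes letters in a window, not a bound factor.

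ATF4 is a transcription factor that raises amino acid synthesis and transport under amino acid stress. Of 20 tested genes of that response 2 fell and 0 rose, where 0.311% of all genes fell, with a list median of −0.17. ASNS, asparagine synthetase (ENSG00000070669.16, chromosome 7, 97852118 to 97872542), was at 2.33, 1.78 and 2.22 CPM in treated and 69.3, 100.5 and 7.64 CPM in DMSO cells. The treated libraries lay close together and the DMSO libraries spread widely above them, and the gene fell by 4.80 ± 0.96 (edgeR adjusted p = 0.0194). DDIT3, the stress transcription factor CHOP (ENSG00000175197.12, chromosome 12, 57516588 to 57521737), was at 18.2, 20.1 and 17.6 CPM in treated and 30.0, 184 and 55.9 CPM in DMSO cells and fell by 2.30 ± 0.48 (edgeR adjusted p = 0.0196). SESN2, a stress-induced restraint on mTORC1, was at 10.3, 7.69 and 10.1 CPM in treated and 13.0, 156 and 15.3 CPM in DMSO cells, with a value of −2.74 ± 0.71 (edgeR adjusted p = 0.0629). CHAC1, which degrades glutathione, had a value of −1.89 ± 0.53 (edgeR adjusted p = 0.0754).

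DMSO replicate 2 was the highest library for each of these 4 genes. Over the list the mean of log2(CPM + 1) was 5.38 to 5.51 in treated and 5.70, 6.70 and 5.38 in DMSO replicates 1, 2 and 3. Without DMSO replicate 2 the list had 0 calls and a median of 0.00, with ASNS at −4.18 and DDIT3 at −1.16 (edgeR adjusted p = 0.108 and 0.229). The same library was also high in immediate early genes, with a mean of 4.36 against 2.89 to 3.24 in the other 5 libraries, and in p53 targets, with 4.50 against 3.47 to 3.62. EGR1, an immediate early transcription factor, was at 3.00, 2.07 and 3.03 CPM in treated and 0.633, 44.4 and 4.70 CPM in DMSO cells. What sets this library apart was not tested.

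The ASNS promoter is shown because ATF4 is known to act on it through a composite element. TGATGNAA, searched as above, was found in 5 of 18 members with a window (27.8%) and in 4.46% of all genes. The window (minus strand, chr7:97872359-97872658) holds the element, in capitals, with its first base 68 bases before the start.
ASNS: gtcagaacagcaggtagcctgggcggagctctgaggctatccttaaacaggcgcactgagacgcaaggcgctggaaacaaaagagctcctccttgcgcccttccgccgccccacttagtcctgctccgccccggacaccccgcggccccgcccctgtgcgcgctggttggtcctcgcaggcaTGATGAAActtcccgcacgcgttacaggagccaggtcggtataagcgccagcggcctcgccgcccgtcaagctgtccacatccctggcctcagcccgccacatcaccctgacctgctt
The other members with the element had values of −2.94 (ATF3), −1.89 (CHAC1), −0.35 (CEBPG) and −0.24 (SLC3A2), of which none was called. ATF3, a stress transcription factor, stood at 0.23 without DMSO replicate 2.

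Among the other falls MCTP1, a calcium-binding membrane protein, was at 2.00, 0.888 and 1.62 against 3.16, 12.0 and 11.8 CPM (treated against DMSO), a change of −2.50 ± 0.52. CD163L1, a scavenger receptor, was at 1.83, 1.48 and 4.04 against 6.96, 20.3 and 14.1 CPM, a change of −2.47 ± 0.58. RP1, CDKL3 and CHIC2 changed by −2.30 ± 0.58, −2.02 ± 0.44 and −2.02 ± 0.45. Abundant genes that fell were named after their values were seen. SQSTM1, the autophagy receptor p62, was at 916, 786 and 721 against 1428, 3781 and 1556 CPM, a change of −1.48 ± 0.32 that was −0.86 without DMSO replicate 2 (edgeR adjusted p = 0.208). PRDX1, a peroxiredoxin, was at 2894, 3217 and 2977 against 4403, 5475 and 6257 CPM, a change of −0.83 ± 0.21. The proton pump genes ATP6V1A and ATP6V1D changed by −0.89 ± 0.18 and −0.77 ± 0.19, the deubiquitinase gene CYLD by −1.22 ± 0.30 and CRBN, a substrate receptor of a ubiquitin ligase, by −1.10 ± 0.25. IFNAR1, a chain of the type I interferon receptor, was at 45.7, 53.8 and 54.5 against 72.1, 80.7 and 114 CPM and fell by 0.78 (edgeR adjusted p = 0.0421).

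Of 51 interferon-stimulated genes, which encode antiviral effectors, 0 passed the threshold in edgeR. An unadjusted p under 0.05 with a positive value was reached by 30 of them, where 1019 of all 14789 genes did so. DESeq2 called 12 higher, where it called 1.31% of all genes higher. The median was 1.37, 50 values were positive, and 28 genes were higher in all treated than in all DMSO libraries, where 8.71% of all genes were. OASL, an antiviral relative of the oligoadenylate synthetases, was at 20.0, 41.1 and 42.4 CPM in treated and 10.8, 1.03 and 4.12 CPM in DMSO cells (2.79 ± 0.74, edgeR adjusted p = 0.0700). ISG15, a ubiquitin-like modifier, was at 402, 600.3 and 1251 CPM in treated and 155, 38.7 and 113 CPM in DMSO cells (2.89 ± 0.76, edgeR adjusted p = 0.0700). IFIT1, which binds viral RNA (ENSG00000185745.9, chromosome 10, 89392546 to 89406486), was at 48.2, 131 and 173 CPM in treated and 18, 1.72 and 7.06 CPM in DMSO cells (3.78 ± 1.02, edgeR adjusted p = 0.0748). For all 3 genes the groups did not overlap, and the treated libraries spread over a wide range. OAS1, which makes the activator of RNase L, had a value of 2.98 ± 0.85 (edgeR adjusted p = 0.0843).

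Over the list the mean of log2(CPM + 1) was 4.74, 5.37 and 6.07 in treated replicates 1, 2 and 3 and 4.10, 3.65 and 4.16 in DMSO. Treated replicate 3 was the highest and treated replicate 1 the lowest of its group, still above each DMSO library. Without treated replicate 3 the median was 0.85. Without DMSO replicate 1 there were 3 called rises among the 51 genes, in a fit that called 3.63% of all genes higher.

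The IFIT1 promoter is shown because it carries the interferon response element, through which interferon-activated factors are known to act. The element (GAAA, any 2 bases and GAAA again), searched as above, was found in 27 of 41 members with a window (65.9%) and in 4.38% of all genes. The window (plus strand, chr10:89392373-89392672) holds it 2 times, in capitals as its reverse complement, the first match starting 116 bases before the start.
IFIT1: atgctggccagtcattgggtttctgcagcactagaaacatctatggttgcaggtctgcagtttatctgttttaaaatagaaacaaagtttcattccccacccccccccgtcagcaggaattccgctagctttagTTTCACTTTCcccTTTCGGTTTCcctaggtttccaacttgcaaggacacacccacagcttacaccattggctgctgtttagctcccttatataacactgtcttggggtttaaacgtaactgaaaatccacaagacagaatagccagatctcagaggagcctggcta
Members with the element had values from 0.02 (TRIM21) to 4.18 (MX1).

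Lists related to interferon responses are given next. Among 15 PARP family genes 0 were called (3 with an unadjusted p under 0.05), with a median of 0.26. DESeq2 called 1 higher, against 1.31% of all genes. PARP9, which is interferon-inducible and belongs to both lists, was at 15.8, 34.3 and 50.9 CPM in treated and 7.28, 4.47 and 9.41 CPM in DMSO cells (2.34 ± 0.71, edgeR adjusted p = 0.101). Medians were 0.02 over 12 nucleic acid sensing genes and 0.07 over 18 genes of MHC class I presentation. Among 9 immune checkpoint ligands 1 was called higher, where 0.365% of all genes rose. The list had 7 positive and 2 negative values and a median of 0.34. The called gene NECTIN2, a ligand of the receptor TIGIT, was at 55.9, 41.1 and 43.8 against 28.5, 25.3 and 22.3 CPM and rose by 0.88 ± 0.21 (edgeR adjusted p = 0.0327). It was called in 1 of the 6 fits that leave out a library. The T-cell chemokines CCL5 and CXCL10 had values of 1.41 ± 0.44 and 3.20 ± 1.33 (edgeR adjusted p = 0.105 and 0.246).

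Of 18 NF-kB targets and cytokines edgeR called 0 and DESeq2 called 3 higher, against 1.31% of all genes, with a list median of 0.94. An unadjusted p under 0.05 was reached by 6 with a positive and 1 with a negative value, where 1019 and 1204 of all 14789 genes did so, and 8 members were higher without overlap, against 8.71% of all genes tested. CCL20, a chemokine of dendritic and T cells, was at 51.9, 90.5 and 107 CPM in treated and 15.5, 9.98 and 30.0 CPM in DMSO cells (2.26 ± 0.65, edgeR adjusted p = 0.0875). The cytokines IL6 and IL1B had values of 2.17 ± 0.65 and 3.19 ± 0.98 (edgeR adjusted p = 0.0962 and 0.107). CXCL1, a neutrophil chemokine, was at 902, 870.2 and 1019 CPM in treated and 571, 62.1 and 357 CPM in DMSO cells, with a value of 1.50 ± 0.53.

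The gene of the inhibited enzyme, TIPARP (ENSG00000163659.12, chromosome 3, 156673235 to 156706770), was at 8.34, 12.4 and 16.4 CPM in treated and 10.1, 13.9 and 14.7 CPM in DMSO cells. The groups overlapped, with a value of −0.06 ± 0.67 (edgeR adjusted p = 0.981). Its group means over the 14 groups of the line ran from 12.3 CPM (RBN-2397 at 30 nM, 24 h) to 41.7 CPM (RBN012337 at 100 nM, 6 h). At 24 h they were 12.4 ± 4.01 CPM at 3 nM, 19.9 ± 3.39 at 10 nM, 27.5 ± 22.4 at 100 nM and 12.9 ± 2.45 in DMSO (SD, n = 3). Of 12 genes of the aryl hydrocarbon receptor list 0 were called by edgeR or DESeq2 (3 with an unadjusted p under 0.05), with a median of 0.24. The aldehyde dehydrogenase gene ALDH3A1 was at 98.9, 98.5 and 109 CPM in treated and 87.3, 9.81 and 15.9 CPM in DMSO cells (1.43 ± 0.50, edgeR adjusted p = 0.157). The receptor gene AHR had a value of 0.57 ± 0.24, the quinone reductase gene NQO1 −0.67 ± 0.23 and CYP1B1, a monooxygenase named after its values were seen, 1.01 ± 0.63 (edgeR adjusted p = 0.240, 0.145 and 0.468).

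Cell division genes separated the DMSO libraries from each other. Of 29 DNA replication genes 0 were called and 28 had positive values, with a median of 0.63. An unadjusted p under 0.05 was reached by 11, all with positive values, where 1019 of all 14789 genes did so. DESeq2 called 1 higher, where it called 1.31% of all genes higher. Of 26 mitosis genes 0 were called (6 with an unadjusted p under 0.05, 0 by DESeq2) and all 26 had positive values, with a median of 0.60. The mean of log2(CPM + 1) over the replication genes was 5.51 to 5.71 in treated and 5.68, 3.96 and 4.67 in DMSO replicates 1, 2 and 3. DMSO replicate 1 lay with the treated libraries, and without it 18 replication and 11 mitosis genes were called higher, in a fit that called 3.63% of all genes higher. MCM6, a helicase subunit, was at 96.6, 88.2 and 83.4 CPM in treated and 86.4, 32.2 and 27.6 CPM in DMSO cells, and the proliferation marker MKI67 at 236, 241 and 257 CPM in treated and 185, 94.6 and 78.2 CPM in DMSO cells. In bulk samples, fewer dividing cells and less RNA of these genes per cell cannot be told apart.

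**Figure D3:**
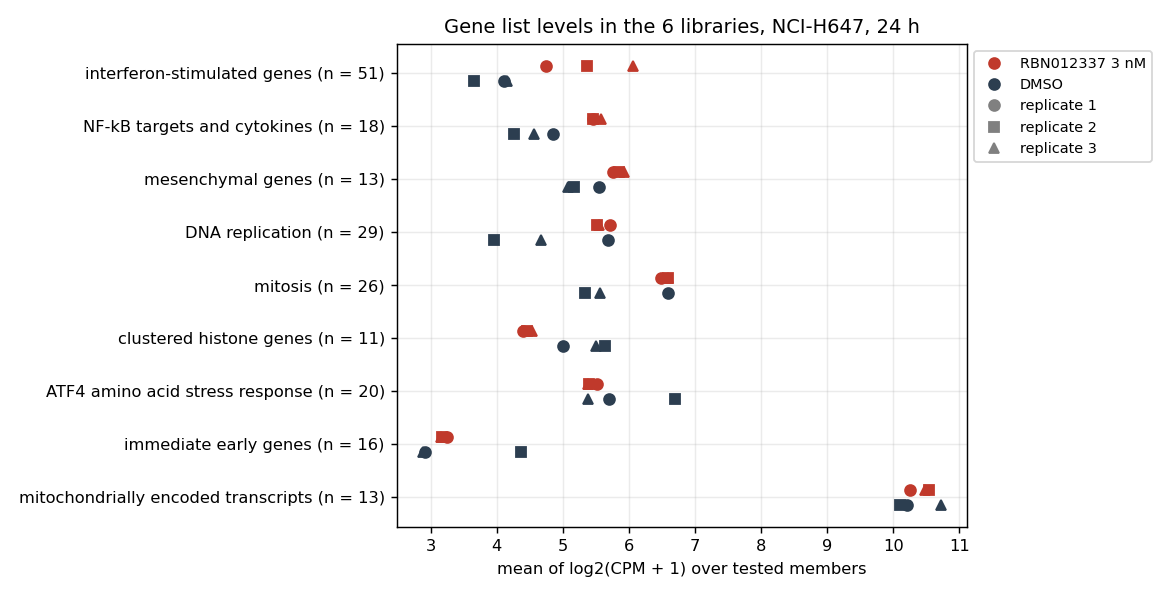
Mean of log2(CPM + 1) over the tested members of gene lists, for each of the 3 treated and 3 DMSO libraries at 24 h. Interferon-stimulated genes lie at 4.74 to 6.07 in treated and 3.65 to 4.16 in DMSO, DMSO replicate 1 reaches 5.68 for DNA replication, and DMSO replicate 2 reaches 6.70 for the ATF4 list.

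The response to 3 nM at 24 h was set against that at 6 h. At 6 h 0 genes were called against the DMSO cells of that time (769 with an unadjusted p under 0.05). The difference between both responses was called for 0 genes by edgeR and 3 by DESeq2, and 606 had an unadjusted p under 0.05. Of the 54 rises 48 were positive at 6 h, with a median of 0.35, and of the 46 falls 40 were negative, with a median of −0.31. The 24 h minus 6 h difference was 2.51 ± 0.64 for KRT17 and 1.91 ± 0.43 for SMOC1 (edgeR adjusted p = 0.715 and 0.552).

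The levels of many called genes moved in the DMSO cells between the 2 times. SMOC1 was at 46.2, 24.9 and 26.7 CPM in DMSO at 6 h and 12.0, 5.33 and 7.64 CPM at 24 h, while treated cells held 28.9, 32.8 and 48.0 and then 44.9, 27.2 and 28.3 CPM. KRT17 was at 23.1, 17.9 and 20.9 and then 5.69, 4.30 and 1.76 CPM in DMSO, and at 27.4, 24.8 and 43.3 and then 27.2, 39.4 and 43.6 CPM in treated cells. At 6 h the groups overlapped for SMOC1, while for KRT17 every treated library already lay above every DMSO library, with a value of 0.61 ± 0.42 (edgeR adjusted p = 0.941). For both genes the DMSO libraries were lower at 24 h than at 6 h. ASNS was at 8.48, 0.778 and 2.48 and then 69.3, 100.5 and 7.64 CPM in DMSO, and at 2.33, 0.241 and 1.28 and then 2.33, 1.78 and 2.22 CPM in treated cells. The groups were also apart at 6 h for PTGS2, at 61.8, 84.1 and 80.5 CPM in treated and 43.0, 35.8 and 22.0 CPM in DMSO cells.

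All 54 rises were lower in DMSO at 24 h than at 6 h, by a median of −1.11 in mean log2(CPM + 1), whereas in treated cells 27 were higher and 27 lower (median −0.0009). All 46 falls were higher in DMSO at 24 h, by a median of 0.51, and 40 of them were lower in treated cells (median −0.23). Over all genes the medians were 0.02 in DMSO and 0.00 in treated cells. The called genes were chosen with the 24 h DMSO libraries that enter these differences, so these counts are a description without a test. Interferon-stimulated genes, whose list was not drawn from these calls, were higher at 24 h in treated cells for 51 of 51 genes (median 1.77) and in DMSO for 38 of 51 (median 0.37). Cytosolic ribosomal protein genes were lower at 24 h for 37 of 37 genes in both, by a median of −0.52 in DMSO and −0.16 in treated cells. Their mean of log2(CPM + 1) at 24 h was 11.30, 10.49 and 10.78 in DMSO replicates 1, 2 and 3 and 10.99 to 11.19 in treated cells. The part of this shift in the called genes was not tested.

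**Figure D4:**
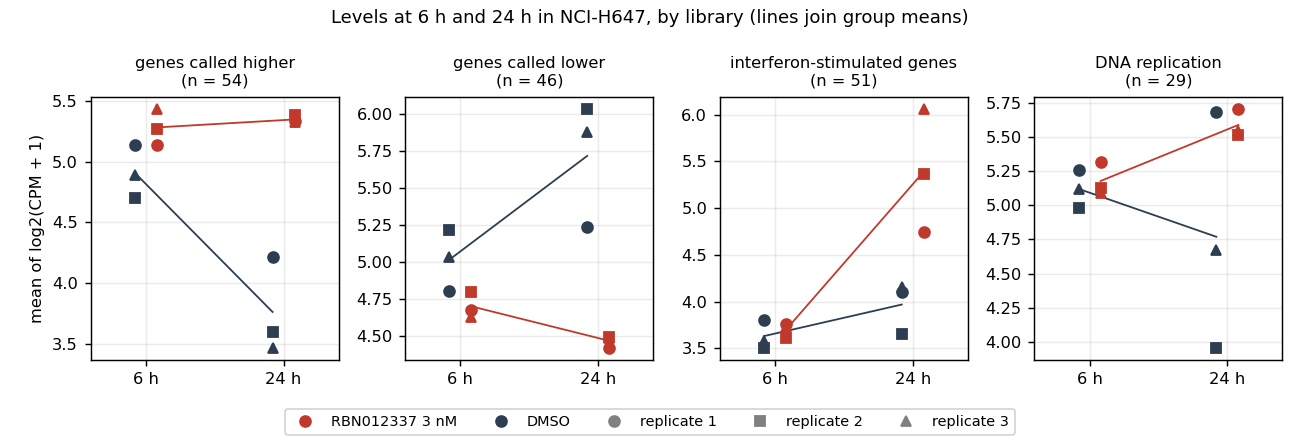
Mean of log2(CPM + 1) in each library of DMSO and RBN012337 3 nM at 6 h and 24 h, for sets of genes. The genes called higher stand at 4.70 to 5.14 in DMSO at 6 h and 3.47 to 4.22 at 24 h but at 5.14 to 5.44 in treated cells at both times, and the interferon-stimulated genes reach 4.74 to 6.07 in treated cells at 24 h.

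The concentrations of RBN012337 were compared at 24 h. Between 10 nM and 3 nM edgeR called 0 genes (336 with an unadjusted p under 0.05, 2 by DESeq2), and between 100 nM and 3 nM 0 genes (492 with an unadjusted p under 0.05, 3 by DESeq2). These counts do not show that the concentrations act alike. The 10 nM minus 3 nM difference was −0.29 ± 0.40 for KRT17, 0.20 ± 0.34 for HIST1H2AC and −1.47 ± 0.44 for NES. The 100 nM minus 3 nM difference was −0.38 ± 0.40 for KRT17, 0.81 ± 0.33 for HIST1H2AC and 1.36 ± 0.99 for ASNS. At 100 nM HIST1H2AC was at 43.7 CPM in replicate 2, against 14.5 and 11.2 CPM in replicates 1 and 3.

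All concentrations share the 3 DMSO libraries, so their values against DMSO are given side by side. At 10 nM 26 genes were called (0.176%), 20 higher (0.135%) and 6 lower (0.0406%), and at 100 nM 15 (0.101%, all higher). The 54 rises had positive values at both, with medians of 1.22 and 1.19, and the 46 falls negative values, with medians of −0.71 and −0.59. CSF3 stood at 3.91, 3.81 and 4.28 at 3, 10 and 100 nM, ASNS at −4.80, −4.45 and −3.44, and HIST1H2BC at −3.34, −2.37 and −1.13. Interferon-stimulated genes had medians of 1.37, 1.05 and 1.59. At 100 nM replicate 2 stood apart, with 60.3, 2.07 and 68.1 CPM of CSF3, 157, 22.6 and 144 CPM of PTGS2 and 131, 6.9 and 379.8 CPM of IFIT1 in replicates 1, 2 and 3. In the same order HIST1H2BC was at 4.83, 30.6 and 2.75 CPM, DDIT3 at 17.9, 97.6 and 19.0 CPM and ASNS at 0, 10.4 and 5.50 CPM. The smaller falls at 100 nM thus include this replicate, and its part in them was not tested. RBN-2397 at 24 h gave 266, 139 and 500 called genes at 10, 30 and 300 nM (1.80%, 0.940% and 3.38%). Those concentrations differ from 3 nM, and no comparison was made.

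**Figure D5:**
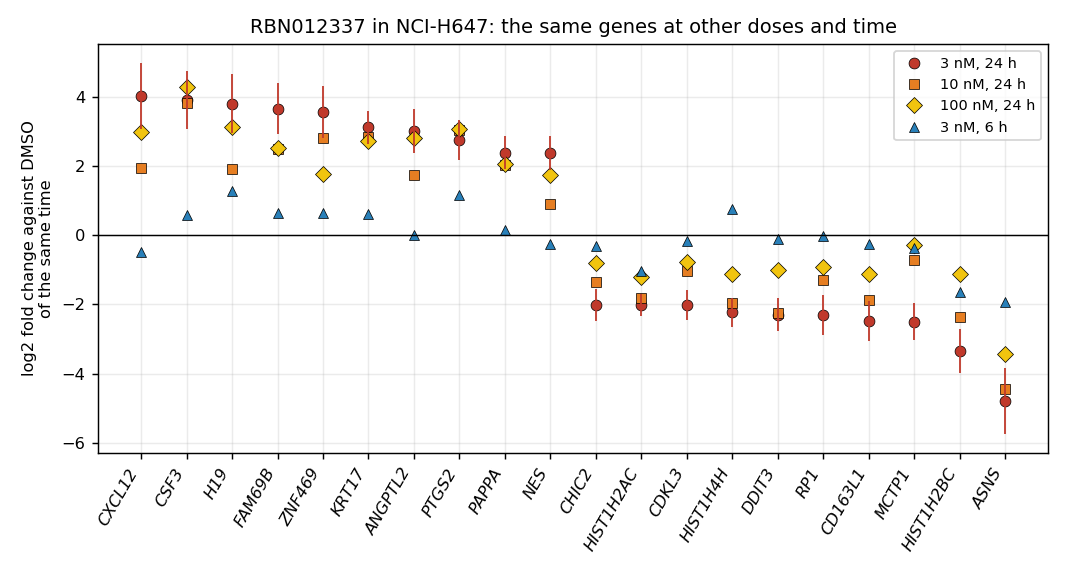
Log2 fold change against the DMSO cells of the same time for the 10 largest rises and 10 largest falls, at 3, 10 and 100 nM at 24 h and at 3 nM at 6 h. The 24 h values share their DMSO libraries, and CSF3 stands at 3.91, 3.81 and 4.28 at the 3 concentrations but at 0.59 at 6 h.

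The response was also compared with that of NCI-H1373 to the same concentration and time, in a fit of 84 libraries and 16177 genes. The difference between lines was called for 0 genes by edgeR and 26 by DESeq2, and 1134 had an unadjusted p under 0.05. In NCI-H1373 1182 genes were called against its own DMSO cells (7.31%), 667 higher (4.12%) and 515 lower (3.18%). Of the 54 rises 14 were called higher there and 1 lower, and of the 46 falls 22 were called lower and 0 higher. Genes called the same way in both lines include NES (1.78 in NCI-H1373), TGFBI (1.46), TGM2 (1.68), ASNS (−7.00), DDIT3 (−1.68), SQSTM1 (−1.74) and HIST1H2BC (−1.93). TFPI2, an inhibitor of matrix proteases named after its values were seen, rose by 1.19 in NCI-H647 and stood at −2.01 in NCI-H1373, a difference of 3.21 ± 0.67 (edgeR adjusted p = 0.0751). PTGS2 stood at −1.21 in NCI-H1373, a difference of 3.97 ± 1.32 (edgeR adjusted p = 0.376). The genes SMOC1, PAPPA, CXCL12, COL5A1, FAM163A and DMBT1, called higher in NCI-H647, had 0 counts in the 6 NCI-H1373 libraries of this comparison. Interferon-stimulated genes had a median of 1.27 in that line with 14 of 51 called higher, and DNA replication genes 0.85 with 6 of 29 called higher.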

How the data were processed

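The libraries are 3′ digital gene expression profiles, per the labels' protocols. Deposited values are estimated counts per gene, which the authors made with Salmon on genome build hg38, per the submitters' processing notes; the handling of strand and molecular identifiers is not given in the sources used here. Of the nonzero values 49.4% were not whole (tolerance 1e-06), and counts were rounded to whole numbers first. Of 57964 genes 57845 were named by GENCODE 29. Total counts per library ran from 630654 to 6938453 over the study.

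Groups were taken from sample titles. Genes were filtered with edgeR's filterByExpr, normalised by TMM and fitted in edgeR 4.0.16 (R 4.3.3, limma 3.58.1) with a quasi-likelihood test and Benjamini-Hochberg adjustment, called at 0.05. One fit held the 42 NCI-H647 libraries in 14 groups of 3 (14789 genes), which share 1 estimate of the spread, and another all 84 libraries (16177 genes). Each SE is the absolute log2 fold change divided by the square root of the F statistic of the quasi-likelihood test. CPM use TMM library sizes, and list levels use a pseudocount of 1. The scripts were tested on simulated data. Alternatives were DESeq2 1.42.0, RLE size factors, no filter, fewer groups, a replicate block and leaving out each library. Genes named are the 10 largest called rises and falls with a mean of at least 5 counts and no overlap of groups, up to 4 members per list by p, TIPARP, and genes marked as named after their values were seen. The comparison and the lists were chosen with earlier results of these data known.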

Additional observations from a re-analysis of the deposited data

How the results depend on the processing

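The 100 calls at 3 nM became 357 with DESeq2 (96 shared), 609 with no filter on low counts (85 shared), 6 with only the libraries of the groups compared (4 shared; 6 higher, 0 lower), 4 with only the libraries of 24 h (4 shared; 4 higher, 0 lower), 96 with RLE size factors and 4 to 922 when a library was left out. Without treated replicate 1, 2 or 3 there were 11, 4 and 13 calls, and without DMSO replicate 1, 2 or 3 there were 922, 13 and 15. With a replicate block there were 402, including all 100. The replicate number pairs no samples by label, and deviations of same-numbered samples correlated at 0.16, −0.0436 and 0.173, with treated replicate 2 closest to DMSO replicate 3 (0.0715), so the block is given as a hint from the data. No called gene changed sign in the alternatives that tested it, which were 12 for 95 genes, 11 for ANGPTL2 and RP1, and 10 for HIST1H2AE, H19 and CXCL12. The groups did not overlap for all 54 rises and for 45 of the 46 falls, so a change of sign was unlikely from the start. The kept signs are therefore no support for the calls. Of the 100 genes 74 were called in 1 of the 6 fits that leave out a library.

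The difference between 24 h and 6 h gave 3 calls with DESeq2, 132 with no filter and 0 to 13 when a library was left out (13 without DMSO 24 h replicate 1). The difference between 10 nM and 3 nM gave 2 with DESeq2, 5 with only the groups compared and 55 with no filter; that between 100 nM and 3 nM gave 3, 1 and 70. The difference between lines gave 26 with DESeq2, 117 with no filter, 9 with the replicate block and 0 to 22 when a library was left out: 22 without NCI-H1373 DMSO replicate 3, 15 without NCI-H647 DMSO replicate 2, 3 and 2 without DMSO replicate 1 of NCI-H1373 and NCI-H647, and 1 without NCI-H1373 treated replicate 1. The cause was not tested.

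Some genes that were not called with all libraries changed sign when a library was left out. They spanned these values, the highest without DMSO replicate 2: EGR1 −3.21 to 0.30, ATF3 −3.44 to 0.23, ETV5 −1.26 to 0.16, JUNB −1.41 to 0.44, KLF2 −1.36 to 0.14 and HLA-E −0.77 to 0.16. The fit without DMSO replicate 1 called 6 ATF4 list, 2 immediate early and 1 ERK output genes lower, and 2.42% of all genes lower. SLPI spanned −0.14 (without treated replicate 1) to 0.46, SFTPB −0.24 (without treated replicate 3) to 0.60, and TIPARP −0.32 to 0.19 (without treated replicate 1), with 0.04 and 0.03 without DMSO replicates 2 and 3. Counts under a few CPM limit the precision for H19, CXCL12 and ZNF469.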

Other observations

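The remaining lists had 0 genes called by edgeR at 3 nM and are given by their medians. DESeq2 called 1.31% of all genes higher and 1.10% lower. In these lists it called 2 epithelial, 2 sterol and 1 interferon and chemokine genes higher and 2 p53 targets lower. It also called 1 higher and 1 lower in each of the ER chaperone, glycolysis and NRF2 lists. Epithelial adhesion and keratin genes stood at 0.89 over 12 tested, with KRT7 at 583, 657 and 639 CPM in treated and 294, 28.1 and 73.5 CPM in DMSO cells and the hair keratin KRT81 at 1.41 ± 0.38 (edgeR adjusted p = 0.0700). Immediate early genes stood at −0.60 (16 tested), p53 targets at −0.30 (18), sterol and fatty acid synthesis at 0.24 (27), glycolysis and hypoxia at 0.21 (23), NRF2 targets at −0.09 (20), ERK output at −0.03 (15), apoptosis regulators at −0.22 (22), tubulins at 0.10 (11), lung lineage and mucins at 0.16 (3) and interferons and T-cell chemokines at 2.03 (3). ER chaperones and XBP1 targets stood at −0.05 (19) and cytosolic heat shock chaperones at −0.12 (13). Lists that can follow RNA quality stood at 0.02 (mitochondrially encoded, 13), 0.17 (cytosolic ribosomal, 37) and −0.03 (nuclear oxidative phosphorylation, 30). Without DMSO replicate 1 the ribosomal median was 0.47 with 5 of 37 called higher, and without DMSO replicate 2 it was −0.01 with 0 called. Those fits called 3.63% and 0.0595% of all genes higher. OSGIN1, an oxidative stress target of NRF2, was at 66.5, 40.5 and 44.0 CPM in treated and 101, 197 and 96.4 CPM in DMSO cells (−1.39 ± 0.36, edgeR adjusted p = 0.0573). The fatty acid synthase gene FASN was at 29, 17.8 and 19.0 CPM in treated and 14.6, 7.57 and 5.88 CPM in DMSO cells (1.21 ± 0.37, edgeR adjusted p = 0.0978).

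Called genes outside every list, chosen after their values were seen, include MGLL, a monoacylglycerol lipase (1.74 ± 0.36), LIPG, the endothelial lipase (1.52 ± 0.34), and TPM4, a tropomyosin (1.10 ± 0.25), which rose. IDS, a lysosomal sulfatase (−0.82 ± 0.19), CYP4F11, a fatty acid hydroxylase (−1.36 ± 0.30), and HIST1H2AE (−2.83 ± 0.63) were called lower. HIST1H2AE was at 0.834, 1.18 and 0.404 CPM in treated and 0.949, 11.0 and 4.12 CPM in DMSO cells and was the 1 called fall whose groups overlapped.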
